A study of Homo sapiens with 6 samples.

Results

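The genes that build cholesterol and fatty acids were compared between pLB and pLUM cells. The set held 35 named genes out of 25940 gene names on the array, and was chosen for pathway role, as the enzymes of the mevalonate route, of the route from squalene to sterols and of fatty acid synthesis, together with the proteins that sense sterols and govern the pathway. Every array spot carrying such a name was taken, which gave 50 of 34127 probes, and 48 of these probes, covering all 35 genes, were bright enough to be tested. SC4MOL and SC5DL are the genes now called MSMO1 and SC5D, and the array itself names them MSMO1 and SC5DL.

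Both lines descend from T47D, an estrogen receptor-positive luminal breast cancer cell line, grown as xenografts and returned to culture. pLUM (3 arrays) was a CLD3+CD49f- line from a tumor grown with estradiol (E), and was held in 1 nM E for 72 h before harvest. pLB (3 arrays) was a CLD3-CD49f+ line from a tumor grown with E plus progesterone, and was under estrogen withdrawal (EWD). Each is a single derived line sorted repeatedly on those surface proteins, the arrays came from triplicate sorts, and whether CK5+ or CK5- cells went onto the arrays is not given in the labels. Line, tumor of origin and hormone coincided on all 6 arrays and cannot be told apart, and p-values measure only the spread between these samples. In bulk RNA, fewer cells of a type and less RNA per cell cannot be told apart either.

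Cells assemble cholesterol from acetyl-CoA by way of mevalonate, farnesyl diphosphate and squalene, after which a chain of membrane enzymes of the endoplasmic reticulum closes and trims the sterol rings. Fatty acids are built from the same acetyl-CoA after its carboxylation to malonyl-CoA, and are then elongated and desaturated. Transcription of both routes is driven by the SREBP factors, encoded by SREBF1 and SREBF2, which SCAP escorts out of the endoplasmic reticulum for cleavage when sterols are low and which INSIG proteins hold back when sterols are high.

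Promoter sequence was available from RefSeq (GRCh38.p14) for 31 of the 35 genes, and not used here for ACAT2, FDFT1, SQLE and FASN. Each window ran from 250 bases before to 50 bases after a transcription start, and 11 of the 31 genes had more than 1 start, giving 45 windows. The sterol regulatory element was searched as TCACNCCAC, the binding site of NF-Y as CCAAT and the GC box as GGGCGG, each on both strands. The element TCACNCCAC was present in 1 of the 45 windows, that of SREBF2, or 2.22%, against 1.13% of all 35116 windows of the table. CCAAT was present in 28 of 45 windows, or 62.2%, against 34.6% of all windows, and GGGCGG in 37 of 45, or 82.2%, against 45% of all windows. All 8 of the squalene-to-sterol genes with a window held CCAAT in at least 1 window. Counted that way, 24 of the 31 genes held it, against 39.7% of all 27305 genes. Genes with more than 1 start had more chances of a match, and 19.0% of all genes had more than 1. A match of letters is a description and not a measured binding site.

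The stretches below are the 180 bases before the start for SREBF2, the single gene with TCACNCCAC, and for genes ranked by their brightest tested probe. These are INSIG1, the sterol sensor with the largest difference between the lines, and sterol enzymes measurable in both lines. The enzymes are those most above (DHCR7, NSDHL) and most below (TM7SF2, HSD17B7) pLUM in pLB. Capitals mark TCACNCCAC and CCAAT, the latter written ATTGG where it lies on the opposite strand. In GRCh38.p14 the stretches are chr22:41832925-41833104 (plus strand) for SREBF2, chr7:155297698-155297877 (plus) for INSIG1, chr11:71448394-71448573 (minus) for DHCR7, where the first listed of 2 starts is shown, chrX:152830883-152831062 (plus) for NSDHL, chr11:65111692-65111871 (plus) for TM7SF2 and chr1:162790522-162790701 (plus) for HSD17B7.
SREBF2: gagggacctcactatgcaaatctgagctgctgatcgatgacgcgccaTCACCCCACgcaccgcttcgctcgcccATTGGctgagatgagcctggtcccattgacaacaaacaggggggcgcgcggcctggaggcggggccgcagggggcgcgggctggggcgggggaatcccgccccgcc
INSIG1: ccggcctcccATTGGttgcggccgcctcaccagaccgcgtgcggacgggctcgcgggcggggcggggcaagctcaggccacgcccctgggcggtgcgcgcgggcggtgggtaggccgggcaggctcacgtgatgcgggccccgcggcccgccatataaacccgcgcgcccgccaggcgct
DHCR7: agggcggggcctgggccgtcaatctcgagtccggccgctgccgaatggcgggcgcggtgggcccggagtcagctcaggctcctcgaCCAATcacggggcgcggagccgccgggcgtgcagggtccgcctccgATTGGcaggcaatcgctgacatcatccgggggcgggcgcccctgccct
NSDHL: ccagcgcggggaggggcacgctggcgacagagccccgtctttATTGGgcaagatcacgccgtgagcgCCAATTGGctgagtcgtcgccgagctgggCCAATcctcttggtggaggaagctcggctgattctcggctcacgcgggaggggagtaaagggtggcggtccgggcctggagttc
TM7SF2: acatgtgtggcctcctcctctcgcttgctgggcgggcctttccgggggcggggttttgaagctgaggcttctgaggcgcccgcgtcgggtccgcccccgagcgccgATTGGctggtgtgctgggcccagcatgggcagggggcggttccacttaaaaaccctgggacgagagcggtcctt
HSD17B7: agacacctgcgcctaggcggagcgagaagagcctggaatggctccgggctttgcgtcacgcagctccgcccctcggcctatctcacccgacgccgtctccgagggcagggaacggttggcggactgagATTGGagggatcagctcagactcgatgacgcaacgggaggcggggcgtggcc

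In SREBF2 the element begins 133 bases before the start and a reverse CCAAT 106 bases before it. DHCR7 and NSDHL carry CCAAT on both strands within the printed stretch, whereas INSIG1, TM7SF2 and HSD17B7 each carry a single reverse copy there. Genes higher and lower in pLB did not separate by this motif. It was held by 5 of 6 genes higher in pLB that had a window, by 8 of 9 lower in pLB and by 11 of 16 that were not called. The 9 lower include SC5DL and THRSP, which were bright enough to be tested through pLUM alone. Of all genes, 39.7% held the motif in at least 1 window.

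RNA was hybridized to Agilent arrays with a single dye, and values are log2 signals relative to the 75th percentile of intensity on the same array, which lay between 449 and 869. A value of 0 thus equals that percentile, and values of different genes are not compared because probes differ in brightness. Across tested probes r was 0.972 to 0.991 between arrays of the same line and 0.780 to 0.806 between lines. The 6 luminal markers, among them CLDN3 of the sort, summed to 124 to 140 times the percentile in pLUM and 2.39 to 2.82 times in pLB, and the 6 luminobasal markers, among them KRT5 and the CD49f gene ITGA6 of the sorts, to 1.2 to 1.36 and 122 to 144 times. Of the 6 adipocyte markers, ADIPOQ, PLIN1, FABP4 and LEP were well above background on no array, and the summed list was 2.40 to 3.17 times the percentile in pLUM and 2.32 to 2.78 times in pLB. Of the other cell type markers, COL1A2 of fibroblasts was at least 11.5-fold, CD68 of leukocytes 2.87-fold and VWF of endothelium at least 1.8-fold higher in pLB, while COL3A1, DCN, LUM, PDGFRA, PECAM1 and KDR were well above background on no array. The summed fibroblast list (6 genes) was 0.766 to 0.966 times the percentile in pLUM and 0.786 to 1.14 times in pLB, the leukocyte list (5 on the array) 0.200 to 0.326 and 0.262 to 0.443 times, and the endothelial list (4) 0.0728 to 0.108 and 0.0937 to 0.207 times. The part of other cell types in the differences below was not tested.

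Genes of the pathway differed between the lines in both directions. A gene was called when limma gave it an adjusted p under 0.05 (Benjamini-Hochberg, over all tested probes) together with a difference of 2-fold or more. By this rule 8 of the 35 genes were higher in pLB (ACAT2, SQLE, NSDHL, DHCR7, ACLY, ACACA, ELOVL6 and SCD) and 9 were lower (IDI1, LSS, TM7SF2, HSD17B7, SC5DL, INSIG1, ACACB, THRSP and LPIN1). Both directions occurred within the mevalonate steps, within the squalene-to-sterol steps and within fatty acid synthesis. The 17 called genes are 48.6% of the 35, and 45.7% of all 17670 genes tested were called, 22.7% as higher and 23.0% as lower, so the share called is close to that of the array as a whole. The median difference was 0.06 on the log2 scale over the 35 genes and 0.04 over all genes, and the median size without regard to sign was 0.95 and 0.92. By role the median difference was -0.45 for the mevalonate steps, -0.28 for the squalene-to-sterol steps, 0.07 for the regulators and 0.73 for fatty acid synthesis. The pooled median depended on dim genes. With all 6 arrays required to be well above background, which left out THRSP and SC5DL, it was 0.43, and that of all genes was 0.05.

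Of the other 18 genes, 11 passed the adjusted p but differed by less than 2-fold, and 7 missed it. Without the fold threshold, 16 of the 35 were higher and 12 lower, or 28 together, where 32.4% and 31.0% of all genes were, or 63.4% together. The 3 pLUM and 3 pLB values did not overlap for 32 of the 35 genes, and did not overlap for 69.1% of all genes. The spread between replicates was small beside many of these differences, with a median SD of 0.15 in pLUM and 0.17 in pLB. With all 6 arrays required to be well above background, 8 genes were higher and 7 lower. THRSP and SC5DL had the largest SDs of the 35 in both lines, and were also the 2 genes that entered the test through pLUM alone, being well above background on no pLB array.

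Scaling and slide bear on these counts. The 3 pLUM arrays and pLB replicate 1 were on slide 1, and pLB replicates 2 and 3 on slide 2. With slide as a block 9 genes were higher and 6 lower, and within slide 1, where a single pLB array is assumed to vary like the others, 9 were higher and 8 lower. Scaled on spike-in probes that were each centred first, the median of all genes moved to 0.28, the share of called genes on the array that were higher moved from 49.7% to 59.7%, and 13 of the 35 were higher and 7 lower. No called gene changed direction under any scaling tried.

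**Figure D1:**
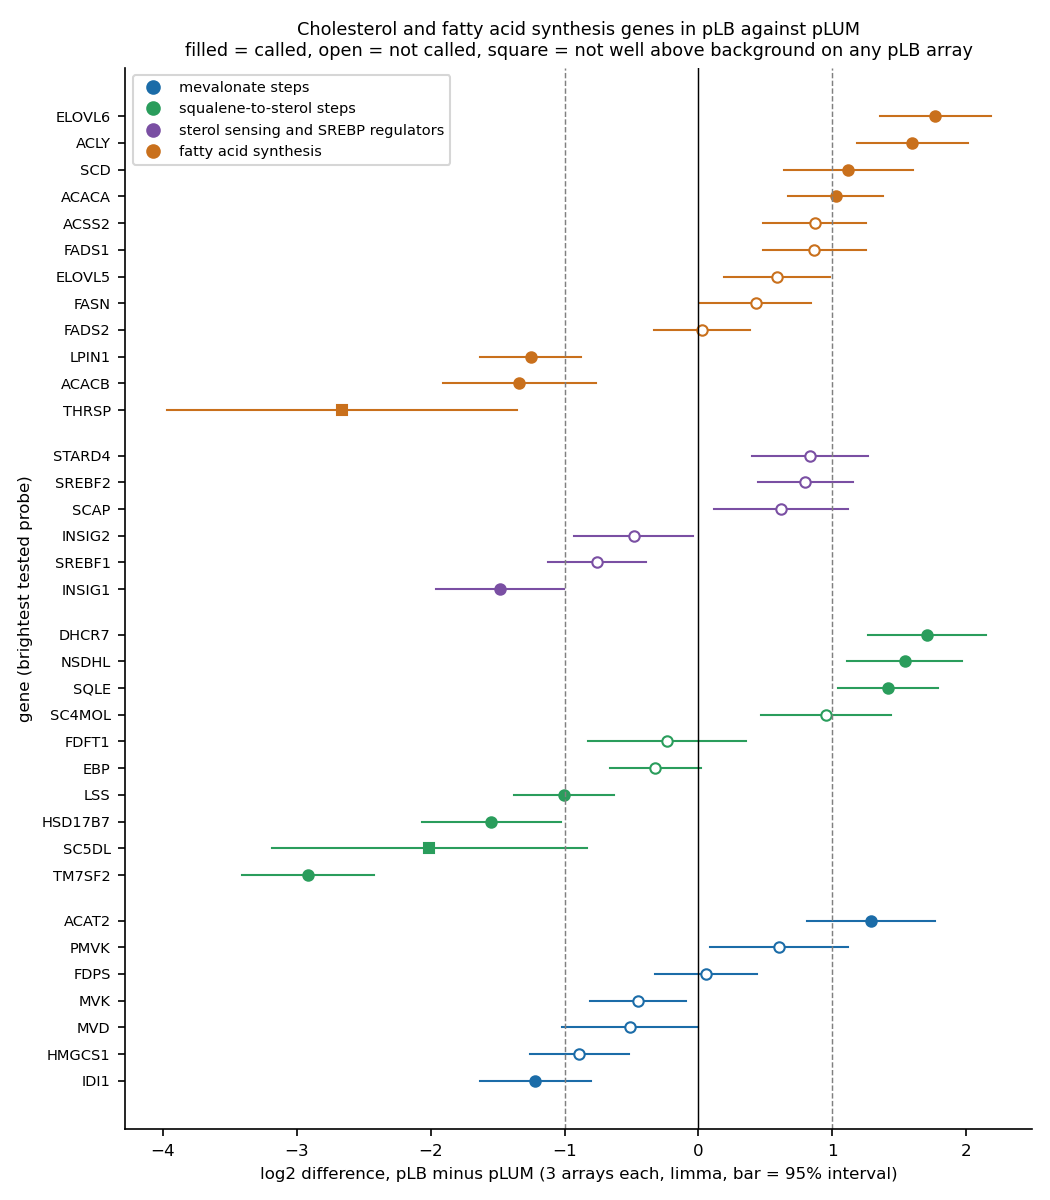
Log2 difference between pLB and pLUM (x axis, pLB minus pLUM) for the brightest tested probe of each of the 35 genes, grouped by role, with 95% intervals from limma over 3 arrays per line. Filled symbols are called genes, dashed lines mark a 2-fold difference, and each group except the regulators has filled symbols on both sides of 0.

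Of the 7 mevalonate genes, ACAT2 was higher in pLB, IDI1 was lower and 5 were not called, or 28.6% called against 45.7% of all genes. ACAT2, the cytosolic thiolase that joins acetyl-CoA units, read 0.53, 0.82 and 0.99 on pLUM replicates 1 to 3 and 2.16, 2.23 and 1.79 on pLB replicates 1 to 3. Every pLB value lay above every pLUM value, a difference of 2.44-fold (log2 1.29, SE 0.20, adjusted p = 0.00114). IDI1, which isomerizes isopentenyl diphosphate, read 1.49, 1.63 and 1.32 in pLUM and 0.33, 0.39 and 0.05 in pLB. Here the pLB arrays were all below the pLUM arrays, by 2.33-fold (log2 -1.22, SE 0.18, adjusted p = 0.000749). With the centred spike-in scaling IDI1 was not called (log2 -0.97, adjusted p = 0.0606).

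Among the steps between these enzymes, HMGCS1, the HMG-CoA synthase, was 1.85-fold lower in pLB and missed the fold threshold (log2 -0.89, adjusted p = 0.00204). The kinase MVK was 1.37-fold lower (adjusted p = 0.0346) and the kinase PMVK 1.52-fold higher (adjusted p = 0.0452). MVD, the decarboxylase, had a log2 difference of -0.51 with an adjusted p of 0.0741. FDPS, which makes farnesyl diphosphate, overlapped between the lines with a difference of 0.06 and a 95% interval of -0.33 to 0.44 on the log2 scale. Without the fold threshold, 2 of the 7 genes were higher and 3 lower, where 32.4% and 31.0% of all genes were.

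The route from squalene to cholesterol held the largest differences of the sterol genes, in opposite directions along the chain. Of its 10 genes 3 were higher, 4 lower and 3 not called, or 70% called against 45.7% of all genes. The 4 lower include SC5DL, which passed the brightness filter through pLUM alone. SQLE, the squalene epoxidase, is an oxygen-requiring and rate-controlling enzyme of the route. It read 1.89, 1.84 and 1.68 in pLUM and 3.26, 3.29 and 3.09 in pLB, so that all pLB arrays were above all pLUM arrays by 2.66-fold (log2 1.41, SE 0.16, adjusted p = 0.000213). LSS, which cyclizes the epoxide to lanosterol, went the other way, with 3.08, 2.95 and 3.19 in pLUM and 2.10, 2.15 and 1.95 in pLB. The groups did not overlap and differed by 2.01-fold (adjusted p = 0.00115), just past the threshold. The call was lost in 7 of 25 alternatives, namely without pLUM replicate 3 or pLB replicate 3 (log2 -0.95 in both cases), with slide as a block or within slide 1 (log2 -0.97), with normexp (log2 -0.88), with the mean of the probes (log2 -0.85) and with the centred spike-in scaling (log2 -0.76, adjusted p = 0.118). A second LSS probe was 1.61-fold lower in pLB (adjusted p = 0.0217). FDFT1, the squalene synthase upstream of both, overlapped between the lines (log2 difference -0.24, 95% interval -0.82 to 0.35).

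The enzymes that strip and reduce the sterol rings differed most. TM7SF2, a sterol reductase of the endoplasmic reticulum, read 2.12, 2.29 and 2.54 in pLUM and -0.37, -0.51 and -0.92 in pLB. All pLB arrays were far below the pLUM arrays, and the 7.56-fold difference (log2 -2.92, SE 0.21, adjusted p = 2.5e-05) was the largest of the 35 genes. Its probe, chr11:64880991-64881050 in hg19, was printed in 10 spots on each array. DHCR7, the reductase of the last step to cholesterol, moved oppositely, with 3.23, 3.08 and 3.36 in pLUM and 5.13, 4.99 and 4.67 in pLB. Every pLB array was above every pLUM array, by 3.26-fold (log2 1.71, SE 0.19, adjusted p = 0.000186).

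SC4MOL, NSDHL and HSD17B7 act in sequence as the oxidase, dehydrogenase and ketoreductase that remove methyl groups from the sterol nucleus, and they did not move together. NSDHL read 0.52, 0.69 and 0.92 in pLUM and 2.43, 2.23 and 2.09 in pLB, with every pLB array above the pLUM arrays (2.91-fold, log2 1.54, SE 0.18, adjusted p = 0.000282). HSD17B7 read -0.86, -0.77 and -0.50 in pLUM and -2.64, -2.15 and -1.98 in pLB. The pLB arrays were all lower, by 2.92-fold (log2 -1.55, SE 0.22, adjusted p = 0.000702). All 5 HSD17B7 probes were lower in pLB, with log2 differences from -0.76 to -2.26, and 4 were called, where 45.6% of all tested probes were. The deposited annotation of the brightest probe and of another also lists the transcript of the pseudogene HSD17B7P2, so part of that signal may come from it. SC4MOL was 1.94-fold higher in pLB, short of the threshold (log2 0.95, adjusted p = 0.00528), and passed it with slide as a block (log2 1.02, adjusted p = 0.0286), with the centred spike-in scaling (log2 1.2), without pLUM replicate 2 (log2 1.09) and without pLB replicate 3 (log2 1.09). With normexp background correction, by contrast, its difference was 0.034 (adjusted p = 0.933).

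EBP, the sterol isomerase, had the smallest spread of the 35 genes and was 1.25-fold lower in pLB without overlap, with an adjusted p of 0.0869. SC5DL, the sterol desaturase, was dim throughout, at -4.26, -4.96 and -4.61 in pLUM and -5.68, -7.76 and -6.43 in pLB. No pLB array showed it well above background, so that pLB was at least 1.60-fold lower (adjusted p = 0.00987). The gene passed the brightness filter through pLUM alone, so its p is no support for the direction. The bound sets the pLUM mean against the mean, over the pLB arrays, of the lowest signal well above background or of the probe's own signal where that was higher. The SC5DL call was lost with slide as a block (log2 -1.07, adjusted p = 0.124), with normexp (log2 -0.76, adjusted p = 0.113), with the methods' t-test after adjustment (adjusted p = 0.0609) and when dim signals were set to that lowest signal (log2 -0.68, adjusted p = 0.0736).

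**Figure D2:**
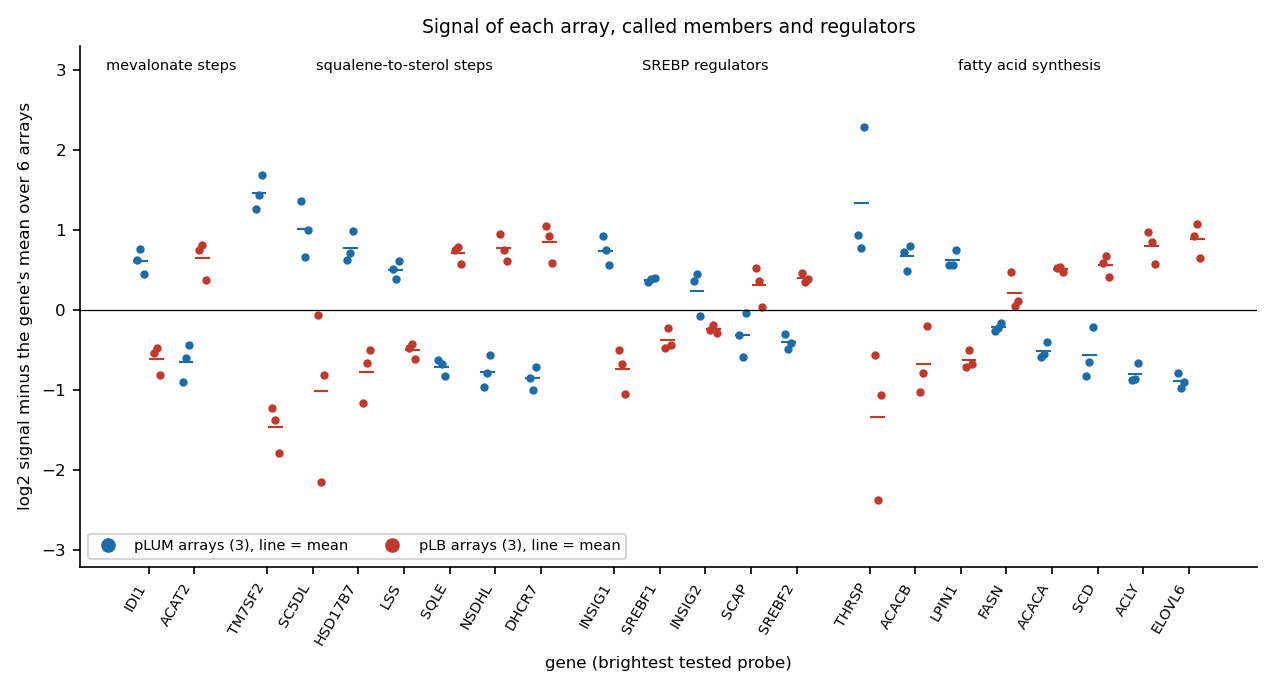
Log2 signal of each array minus the gene's mean over the 6 arrays (y axis) for the called genes and for SREBF1, SREBF2, SCAP, INSIG2 and FASN, with pLUM in blue, pLB in red and a line at each mean of 3 arrays. Red and blue points are separated for every gene shown, in either direction, and THRSP and SC5DL have the widest spread.

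Among the regulators, the feedback inhibitor INSIG1 was the single gene called of 6, or 16.7% against 45.7% of all genes, and the genes for the SREBPs themselves differed by less than 2-fold in opposite directions. INSIG1, which retains SCAP in the endoplasmic reticulum and whose own transcription SREBPs drive, read 1.27, 1.1 and 0.91 in pLUM and -0.15, -0.32 and -0.70 in pLB. All pLB arrays were below the pLUM arrays, by 2.79-fold (log2 -1.48, SE 0.20, adjusted p = 0.000564). INSIG2, the paralog, read -1.09, -1.0 and -1.53 in pLUM and -1.70, -1.64 and -1.74 in pLB. Its values did not overlap, yet the difference missed the adjusted p (log2 -0.48, 95% interval -0.93 to -0.04, adjusted p = 0.0578). A dimmer INSIG2 probe was 3.52-fold lower in pLB (adjusted p = 0.00296) and was well above background on 2 of the 3 pLB arrays.

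SREBF2, whose product acts mainly on sterol genes, read 1.53, 1.34 and 1.42 in pLUM and 2.29, 2.18 and 2.22 in pLB. The pLB arrays lay above, by 1.74-fold (log2 0.80, SE 0.15, adjusted p = 0.00283). SREBF1, whose products include the factor that acts mainly on fatty acid genes, read 6.35, 6.39 and 6.39 in pLUM and 5.52, 5.77 and 5.56 in pLB. The pLB arrays lay below, by 1.69-fold (log2 -0.76, SE 0.16, adjusted p = 0.00403). A dimmer SREBF1 probe whose position starts 115 bases away (chr17:17715304-17715363 against chr17:17715419-17715478, hg19) read -0.86, -1.22 and -1.43 in pLUM and -0.81, -0.49 and -0.43 in pLB. On this probe pLB was 1.51-fold higher (adjusted p = 0.0399), so the direction for SREBF1 depended on the probe. With quantile normalization the brighter probe passed the 2-fold threshold (log2 -1.05), and the mean of both probes was -0.084 (adjusted p = 0.668).

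SCAP read 1.44, 1.16 and 1.71 in pLUM and 2.27, 2.10 and 1.79 in pLB. The closest values of the lines, 1.71 and 1.79, nearly met, and the difference was 1.53-fold (log2 0.62, SE 0.21, adjusted p = 0.0380). STARD4, a soluble sterol carrier, was 1.78-fold higher in pLB (adjusted p = 0.00592). With the centred spike-in scaling, SREBF2 (log2 1.05, adjusted p = 0.0314) and STARD4 (log2 1.08, adjusted p = 0.0370) passed the threshold.

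Of the 12 genes of fatty acid synthesis, 4 were higher in pLB (ACLY, ACACA, ELOVL6 and SCD), 3 were lower (ACACB, THRSP and LPIN1) and 5 were not called. On their brightest probes, all genes of this role other than those 3 had positive log2 differences, from 0.03 for FADS2 to 1.77 for ELOVL6. The 7 called are 58.3%, against 45.7% of all genes, and include THRSP, which passed the brightness filter through pLUM alone. ACLY, which cleaves citrate to cytosolic acetyl-CoA, read -1.88, -1.87 and -1.68 in pLUM and -0.03, -0.17 and -0.44 in pLB. Every pLB array was higher, by 3.02-fold (log2 1.60, SE 0.18, adjusted p = 0.000195). ACSS2, which makes acetyl-CoA from acetate, was 1.83-fold higher (adjusted p = 0.00267) and so missed the fold threshold.

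The acetyl-CoA carboxylases differed in direction. ACACA, the cytosolic enzyme that makes malonyl-CoA for synthesis, read 2.78, 2.82 and 2.96 in pLUM and 3.89, 3.91 and 3.84 in pLB. All pLB arrays were higher, by 2.04-fold (log2 1.03, SE 0.15, adjusted p = 0.000791), but a dimmer ACACA probe overlapped between the lines (log2 -0.09, adjusted p = 0.682), and the call was lost without pLUM replicate 1 (log2 0.99), with the mean of the probes (log2 0.47), with quantile normalization (log2 0.85) and with spike-in scaling (log2 0.94). ACACB, the mitochondrial isoform whose malonyl-CoA restrains fatty acid import for oxidation, read 0.69, 0.46 and 0.77 in pLUM and -1.05, -0.82 and -0.23 in pLB. The pLB arrays were all lower, by 2.53-fold (log2 -1.34, SE 0.24, adjusted p = 0.00230), whereas a dim probe overlapped (log2 0.10, adjusted p = 0.759) and another was too dim to be tested. With the mean of its tested probes ACACB was not called (log2 -0.62).

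FASN, the synthase that builds palmitate, read 3.09, 3.13 and 3.19 in pLUM and 3.83, 3.4 and 3.46 in pLB. The pLB arrays were higher on average by 1.34-fold without overlap, and the difference missed the adjusted p (log2 0.43, 95% interval 0.01 to 0.84, adjusted p = 0.0693). THRSP, a nuclear protein that promotes lipogenic gene expression, was dim at -4.72, -4.87 and -3.37 in pLUM and -6.22, -8.02 and -6.71 in pLB. None of its pLB signals was well above background, which puts pLB at least 1.96-fold lower (adjusted p = 0.00444), and like SC5DL it passed the brightness filter through pLUM alone, so its p is no support for the direction. The THRSP call was lost with slide as a block (log2 -1.90, adjusted p = 0.0550) and with dim signals at the lowest signal well above background (log2 -0.97, adjusted p = 0.0812).

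Of the 5 elongases and desaturases among the 35 genes, ELOVL6 and SCD were called, where 45.7% of all genes were. ELOVL6, which elongates palmitate, read -3.17, -3.37 and -3.29 in pLUM and -1.47, -1.32 and -1.74 in pLB. No pLB value fell as low as a pLUM value, and the difference was 3.41-fold (log2 1.77, SE 0.18, adjusted p = 0.000119), the largest toward pLB of the 35 genes. With normexp background correction, however, the difference was 0.89 (adjusted p = 0.0258) and no longer 2-fold. Another ELOVL6 probe overlapped between the lines and was too dim to be tested. SCD, which desaturates stearate to oleate, read -1.07, -0.90 and -0.46 in pLUM and 0.34, 0.42 and 0.16 in pLB. Every pLB array was higher, by 2.17-fold (log2 1.12, SE 0.20, adjusted p = 0.00240), and the call was lost without pLUM replicate 1 (log2 0.99) and with normexp (log2 0.91).

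The remaining desaturases and elongase, which act on polyunsaturated chains, differed less. FADS1 was 1.82-fold higher in pLB (adjusted p = 0.00268), and ELOVL5 was 1.5-fold and 1.60-fold higher on its 2 probes (adjusted p = 0.0177 and 0.00709). FADS2 overlapped between the lines on its brighter probe (log2 difference 0.03, 95% interval -0.33 to 0.38), and was 1.66-fold lower on a dimmer one (adjusted p = 0.0401). LPIN1, a phosphatidate phosphatase of glycerolipid synthesis, read 1.36, 1.36 and 1.54 in pLUM and 0.07, 0.29 and 0.12 in pLB. All pLB arrays were lower, by 2.39-fold (log2 -1.25, SE 0.16, adjusted p = 0.000382). Another LPIN1 probe was 2.17-fold lower (adjusted p = 0.0428), and a dim one overlapped (log2 -0.10, adjusted p = 0.754), and with the mean of the probes LPIN1 was not called (log2 -0.82).

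**Figure D3:**
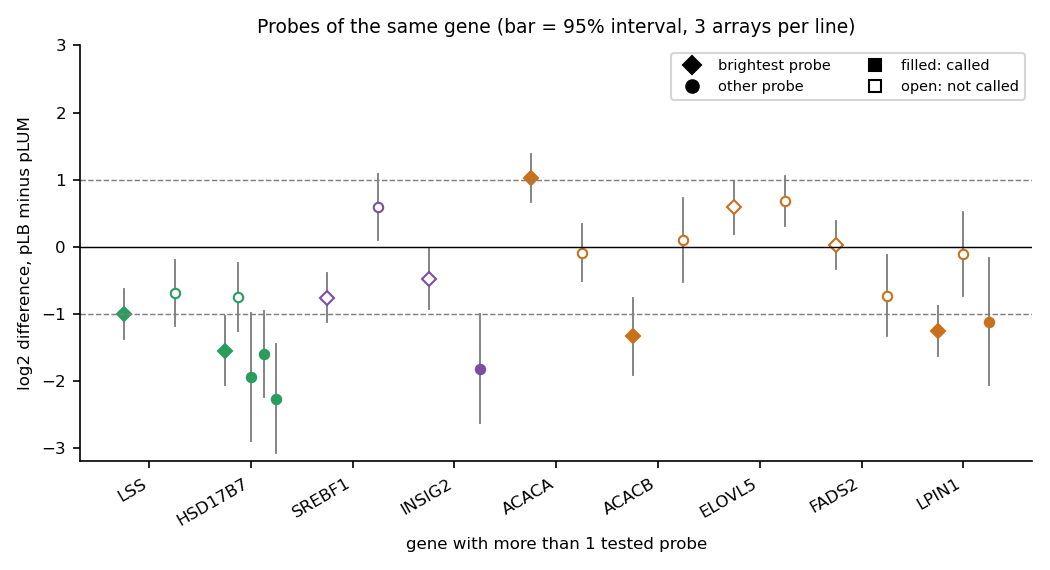
Log2 difference between pLB and pLUM (y axis) for every tested probe of the 9 genes with more than 1, as diamonds for the brightest probe and circles for the others, filled where called, with 95% intervals over 3 arrays per line. The probes of LSS, HSD17B7, INSIG2, ACACA, ACACB and LPIN1 lie on different sides of a dashed 2-fold line, and those of SREBF1, ACACA, ACACB and FADS2 on different sides of 0.

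Probes of the same gene disagreed on the call for 6 of the 9 genes with more than 1 tested probe (LSS, HSD17B7, INSIG2, ACACA, ACACB and LPIN1), and no gene had probes called in opposite directions. Over the array, probes disagreed for 39.6% of 4286 such genes and were called in opposite directions for 1.98%. The deposited annotation names a transcript for each probe but no exon or untranslated region, and which transcripts each probe reports was not tested.

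For 5 pairs of related genes, the ratio of the brightest probes was taken on each array and compared between the lines. Each pair is written with the gene of the higher log2 difference first, so the shared direction of the shifts follows from that order. The ACACA to ACACB ratio on the log2 scale was 2.09, 2.36 and 2.19 in pLUM and 4.94, 4.72 and 4.07 in pLB, a shift of 5.14-fold. Those of SREBF2 to SREBF1, ELOVL6 to ELOVL5, INSIG2 to INSIG1 and FADS1 to FADS2 shifted by 2.95-fold, 2.27-fold, 2.00-fold and 1.79-fold toward the first gene of each pair in pLB. None of the 5 ratios overlapped between the lines. For ACACA to ACACB and SREBF2 to SREBF1 this was fixed beforehand, because the genes of each pair did not overlap and differed in opposite directions. Of all single genes 69.1% did not overlap, which is not a share for ratios, and ratios of other pairs were not taken. Each exact two-sided permutation p was 0.1 (0.1 after adjustment over 5), the smallest that 3 arrays against 3 allow. A shift of a ratio shows unequal change, and each holds for these probes. Other tested probes of the same genes differed by -0.09 for ACACA, 0.10 for ACACB and 0.59 for SREBF1 on the log2 scale. Those of INSIG2, ELOVL5 and FADS2 differed by -1.82, 0.68 and -0.73. The second INSIG2 probe thus fell further in pLB than INSIG1 (-1.48). Ratios with these other probes were not taken, so the shifts may depend on the probe.

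By position, 6 of the 35 genes lie on chromosome 11 (TM7SF2, FADS1, FADS2, DHCR7, THRSP and SC5DL) and 4 on chromosome 17 (SREBF1, ACACA, ACLY and FASN).

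Genes around the synthesis pathway were described from lists of 76 names, of which 70 could be tested, and 14 of these were higher and 12 lower in pLB, or 37.1% against 45.7% of all genes. IDI2, SOAT2, ACSL6, LPIN2 and ME1 were among the names too dim to be tested. The median difference of the 70 genes was -0.05 on the log2 scale.

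Of 15 genes of SREBP processing and of the sterol-activated LXR receptors, 2 were higher and 4 lower in pLB, or 40% called against 45.7% of all genes. ABCG1, a sterol exporter, was 10.2-fold higher in pLB (adjusted p = 6.71e-06). It read -3.31 ± 0.21 in pLUM and 0.04 ± 0.15 in pLB (SD, n = 3). ERLIN1, which binds cholesterol and restrains SREBP activation, was 2.20-fold higher. MBTPS2, an intramembrane protease that releases SREBPs, was 3.01-fold lower, and MYLIP, a ubiquitin ligase for lipoprotein receptors, 2.73-fold lower. Adjusted p-values of the last 3 were 0.00178, 0.00365 and 0.000271. With normexp the ABCG1 difference fell from 3.35 to 2.18 on the log2 scale, and ERLIN1 was not called (log2 0.62), nor was ERLIN1 with slide as a block or within slide 1 (log2 0.95).

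Of 16 tested genes of sterol branches and storage, 3 were higher and 2 lower, or 31.2% called against 45.7% of all genes. VLDLR, a lipoprotein receptor, was 3.0-fold higher in pLB, NPC2, the sterol carrier of lysosomes, 2.77-fold higher, and C14orf1, now ERG28, a scaffold of the demethylation enzymes SC4MOL, NSDHL and HSD17B7, 2.54-fold higher. STARD5, a sterol transfer protein, was lower by a log2 difference of -3.33 and GGPS1, which makes geranylgeranyl diphosphate, was 3.94-fold lower. The 5 adjusted p-values ranged from 2.93e-06 to 0.00281. With normexp VLDLR (log2 0.95) and C14orf1 (log2 0.69) were not called, STARD5 was at -2.36 and GGPS1 at -1.33, and with the mean of the probes C14orf1 was not called (log2 0.39).

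Elongation, activation and glycerolipid genes counted 6 higher and 4 lower of 25, or 40% called against 45.7% of all genes. ACSL4 and SCD5, an acyl-CoA synthetase and a desaturase, were well above background on no pLUM array and on all pLB arrays, and were at least 7.78-fold and at least 8.10-fold higher in pLB. Both passed the brightness filter through pLB alone, and with normexp neither was called (log2 0.84, adjusted p = 0.139 for ACSL4, log2 0.83, adjusted p = 0.0813 for SCD5). AGPAT2, an acyltransferase of glycerolipid synthesis, was 6.59-fold higher. ELOVL2, an elongase of polyunsaturated chains, was 27.9-fold lower and well above background on 2 of 3 pLB arrays, and the acyltransferases GPAM and DGAT1 were 3.32-fold and 2.71-fold lower. Adjusted p-values of AGPAT2, GPAM and DGAT1 ranged from 1.4e-05 to 0.00276. ELOVL2 met the brightness filter on its pLUM arrays, and its 2 pLB arrays alone would not have met it. The ELOVL2 difference was -4.80 on the log2 scale and -3.07 with normexp, that of GPAM was -1.73 and -2.38 with slide as a block, and that of DGAT1 was -1.44 and -2.13 with the probe of lowest adjusted p.

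Of 14 genes of fatty acid oxidation, 3 were higher and 2 lower, or 35.7% called against 45.7% of all genes. PPARG, a nuclear receptor for lipids, was well above background on no pLUM array and at least 6.03-fold higher in pLB. It passed the brightness filter through pLB alone, and with normexp it was not called (log2 0.64, adjusted p = 0.211). CPT1A, which loads acyl chains for mitochondrial import, was 2.88-fold higher and HADHB, a subunit of the trifunctional protein, 2.61-fold higher. The short-chain dehydrogenase ACADS was 2.01-fold lower. Adjusted p-values of CPT1A, HADHB and ACADS ranged from 0.000165 to 0.00692. ACADS was not called with normexp (log2 -0.82), quantile normalization (log2 -0.98), the centred spike-in scaling (log2 -0.76), or without pLUM replicate 2 (log2 -0.87), pLUM replicate 3 (log2 -0.90) or pLB replicate 1 (log2 -0.97).

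**Figure D4:**
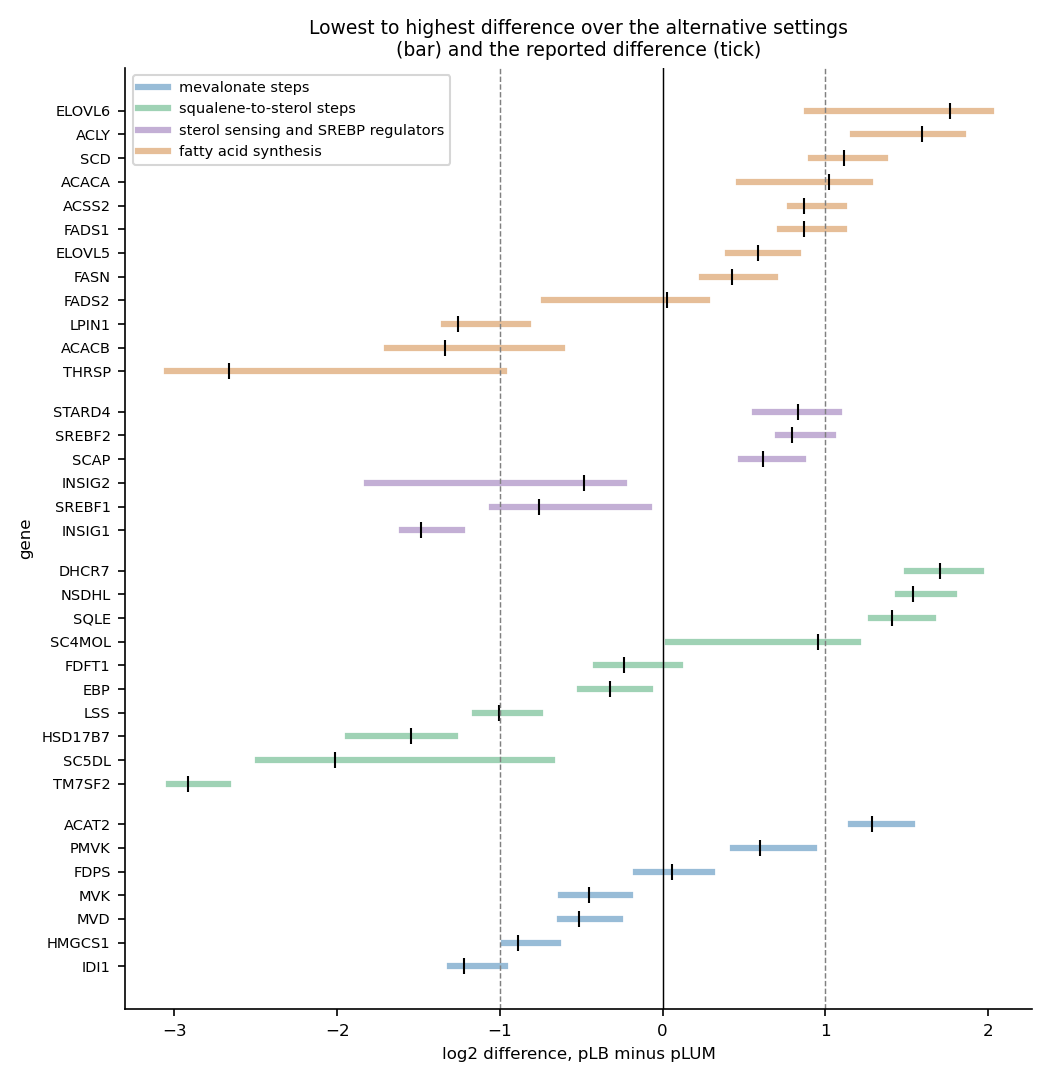
Range of the log2 difference between pLB and pLUM (x axis, pLB minus pLUM) of each of the 35 genes over the alternative settings tried (bar), with the reported value (tick) and dashed lines at a 2-fold difference. The bars of FDPS, FDFT1 and FADS2, which were not called, cross 0, and no bar of a called gene does.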

How the data were processed

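RNA of 3 pLUM and 3 pLB samples was measured on 1-colour (Cy3) Agilent arrays. The authors deposited, for each array, scanner output made with Feature Extraction 10.10.1.1 (Agilent), in which the linear intensity of each spot was background-corrected and spatially detrended but not scaled between arrays. Probe names, transcripts and positions (hg19) are those of the deposited files, and the submitters' processing notes name Partek without a version.

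Controls were removed, as were 296 to 387 outlier spots on each array. Each intensity was divided by the 75th percentile of its array and taken as log2, and spots of a probe were averaged. The 23105 probes that 3 or more arrays showed well above background were fitted with limma 3.58.1 in R 4.3.3 (lmFit, eBayes), with Benjamini-Hochberg adjustment over all of them. The fit was tested on simulated data. A gene was represented by its brightest tested probe. The number of arrays limits the precision. Genes described outside the 35 are up to 3 called per direction and list with the largest differences. Some of these genes are not reported here. The genes and lists were chosen with earlier results of these data known. Alternatives were background corrections, scalings, filters, tests (including the methods' t-test), thresholds, probe rules, blocks and leaving out each array. Promoter sequences and coordinates are of GRCh38.p14 and were not combined with hg19 positions.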

Additional observations from a re-analysis of the deposited data

How the results depend on the processing

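Across 25 alternatives, 8 of the 17 called genes kept their direction and call under every one, and none of the 17 reversed. With normexp, which moved the median of all genes to -0.21, squalene-to-sterol genes lower numbered 2, fatty acid genes higher 2, and sterol branch genes higher, SREBP processing genes higher and oxidation genes lower 1 each, while glycerolipid genes higher numbered 4. Quantile normalization gave 2 regulators lower, a median over the 35 genes of -0.027, FDPS at -0.17 and FADS2 at -0.027, and spike-in scaling a median of -0.030, FDPS at -0.030 and FADS2 at -0.061. Centring each spike-in probe first, a setting chosen after seeing the data, gave 13 genes higher, 0 mevalonate genes lower, 2 regulators higher, 1 oxidation gene lower, a median of 0.30 and FDFT1 at 0.013. Requiring all 6 arrays well above background gave a median of 0.43, where that of all genes was 0.05, and 3 genes with disagreeing probes. Without the fold threshold, 16 genes were higher, mevalonate genes were 2 higher and 3 lower, regulators 3 higher and 2 lower, fatty acid genes 7 higher, SREBP processing genes 4 higher, glycerolipid genes 7 lower and oxidation genes 6 lower. By that rule 32.4% of all genes were higher and 31.0% lower. The mean of the probes gave 2 regulators lower, 1 fatty acid gene lower, 4 SREBP processing genes higher and FADS2 at -0.35, and the probe with the lowest adjusted p gave 2, 4 higher and FADS2 at -0.73. With slide as a block, 2 squalene-to-sterol genes were lower, and with the block or within slide 1, 5 oxidation genes were lower, the median was 0.17, FDFT1 was 0.11 and FADS2 -0.0066. The methods' t-test with a 2-fold difference gave 8 higher and 9 lower unadjusted, and 8 and 8 after Benjamini-Hochberg. The causes of these moves were not tested.

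Leaving out 1 array at a time gave 6 to 9 of the 35 genes higher and 8 to 9 lower, 2 to 4 fatty acid genes higher (2 without pLUM replicate 1, where ACACA and SCD fell just under 2-fold), 1 to 3 oxidation genes lower, a median of 0.04 to 0.12, FDPS at -0.018 to 0.12 and FADS2 at -0.036 to 0.066. Same-numbered replicates did not deviate together (correlations -0.27, -0.09 and -0.22), so numbers were not used as pairs. With the replicate number as a block, 8 genes were higher and 9 lower, and the median was 0.06. Signals near background limit what can be said of SC5DL and THRSP.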
